A study of Mus musculus with 12 samples.

Results

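Acot1, Acot2, Acot3, Acot4, Acot5 and Acot6 are 6 acyl-CoA thioesterase genes that lie side by side on mouse chromosome 12. They were taken as the probe sets that carry 1 of these symbols on the array, which gave 1 probe set for each of the 6 genes, among 22206 probe sets tested and 19505 genes with 1 symbol. The cluster had come to attention through differences between treated and control mice on these same arrays, in liver and in fat, so those differences are given as a description. The counts of members that passed in the fit over all probe sets are no independent test of them. The comparison of liver with fat was not itself used in the choice, but it rests on the same arrays. Gene expression was measured on 12 arrays, 1 for the liver (LIV) and 1 for the inguinal subcutaneous adipose tissue (SAT) of each of 6 mice. All were male C57BL/6N mice, 8 weeks old at the start, and all were fed a high-fat diet (HFD, 60% of the energy from fat) for 10 weeks. The 3 control mice (HFD, animals 8, 11 and 14) received vehicle by gavage every 12 hours for 12 weeks, of which the diet covered the last 10. The 3 treated mice (HFD+LY, animals 16, 18 and 20) received 25 mg/kg of LY2584702 tosylate (LY), an inhibitor of the ribosomal protein S6 kinase S6K1, on the same schedule. Neither an arm on normal chow nor one without vehicle was analysed here, so every value below is from a mouse on the diet.

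Acyl-CoA thioesterases split acyl-CoA into free fatty acid and coenzyme A (CoA), and so reverse the step by which acyl-CoA synthetases activate fatty acids. The enzymes of this cluster are near copies of each other that work in different compartments of the mouse cell: Acot1 in the cytosol, Acot2 in the mitochondrial matrix, and Acot3, Acot4, Acot5 and Acot6 in peroxisomes. Several of these genes are known targets of the fatty acid sensor PPAR alpha in mouse liver, where fasting and fibrate drugs raise them. Acot3 and Acot5 act on fatty acyl-CoA of long and of medium chains, Acot4 acts on succinyl-CoA and other dicarboxylic acyl-CoA, and Acot6 acts on the branched acyl-CoA that comes from phytol.

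In the mouse assembly GRCm38.p6 the genes run in the order Acot2 (chr12:83987861-83993877), Acot1 (chr12:84009502-84017670), Acot4 (chr12:84037254-84044723), Acot3 (chr12:84052144-84060400), Acot5 (chr12:84069077-84076024) and Acot6 (chr12:84100654-84109783). The cluster spans 121.9 kb, with 0 other protein-coding genes inside it. Near copies can share array probes, and the probe sequences were not used here, so a signal given under 1 symbol may hold some RNA of another member. The members differed in where they were above background, which is a measurement and not a check of each probe. In SAT the values of Acot2 stayed above background where those of Acot3 did not. In LIV the values of Acot5 were below background where those of Acot1 to Acot4 were above it.

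The start regions of the 4 members with signal in liver are shown because these adjacent genes differed in size of response and in tissue. Each is the RefSeq window of 300 bases on the plus strand of GRCm38.p6, from 250 bases before to 50 after the first start that the table lists, and capitals mark AGGTCA, the half-site of nuclear receptors, on either strand (TGACCT on the minus strand). The windows are chr12:83987611-83987910 for Acot2, chr12:84009252-84009551 for Acot1, chr12:84038129-84038428 for Acot4 and chr12:84051894-84052193 for Acot3.
Acot2: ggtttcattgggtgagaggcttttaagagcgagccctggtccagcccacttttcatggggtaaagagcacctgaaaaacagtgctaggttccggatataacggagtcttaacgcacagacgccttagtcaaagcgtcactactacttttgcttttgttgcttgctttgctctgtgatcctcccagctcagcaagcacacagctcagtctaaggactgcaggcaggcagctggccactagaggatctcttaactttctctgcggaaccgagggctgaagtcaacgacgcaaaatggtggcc
Acot1: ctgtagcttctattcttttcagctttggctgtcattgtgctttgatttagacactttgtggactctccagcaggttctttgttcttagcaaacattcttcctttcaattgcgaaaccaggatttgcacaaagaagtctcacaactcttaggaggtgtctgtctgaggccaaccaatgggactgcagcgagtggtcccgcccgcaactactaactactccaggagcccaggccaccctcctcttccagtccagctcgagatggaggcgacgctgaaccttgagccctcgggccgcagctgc
Acot4: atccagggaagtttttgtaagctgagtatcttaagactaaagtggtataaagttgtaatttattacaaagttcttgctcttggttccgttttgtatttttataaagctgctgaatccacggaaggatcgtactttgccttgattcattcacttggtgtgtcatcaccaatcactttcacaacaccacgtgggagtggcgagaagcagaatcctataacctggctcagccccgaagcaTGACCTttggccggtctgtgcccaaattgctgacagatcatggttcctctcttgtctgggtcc
Acot3: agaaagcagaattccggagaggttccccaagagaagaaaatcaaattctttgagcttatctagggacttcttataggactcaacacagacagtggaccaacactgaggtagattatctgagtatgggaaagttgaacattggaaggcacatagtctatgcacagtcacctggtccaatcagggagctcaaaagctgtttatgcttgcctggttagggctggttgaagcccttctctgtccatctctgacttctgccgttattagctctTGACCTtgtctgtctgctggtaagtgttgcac

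The windows of Acot1 and Acot2 held 0 AGGTCA matches. Acot4 and Acot3 held 1 each, both on the minus strand, 13 bases before the start in Acot4 and 18 bases after it in Acot3. The window of Acot5 held 2. The start listed for Acot4 lies 1125 bases inside the gene span given above, so its window does not cover the first base of the span. The start listed for Acot5 lies 247 bases inside its span, and its window still covers the first base. Over all 32851 windows of 300 bases, 16.3% held this motif. The motif AGGTCANAGGTCA, a direct repeat with 1 base between the half-sites, was in 0 of these 5 windows and in 0.0396% of all windows, both strands being searched. TATAAA, the TATA box, was in 13.6% of all windows and matched 3 times in Acot4. In 1 stretch there, TTTATAAA, the matches on the 2 strands overlap. CCAAT was in 37.4% of all windows and matched 2 times in Acot3 and 1 time in each of the other 4. A repeat contains its half-sites, and overlaps between the other motifs were not assessed. The longest run of bases shared by any pair of the 5 windows was 7 to 10 bases, so these start regions were not copies of each other. A match describes letters in a window, and no match says only that the letters are not in it.

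All levels are log2 signals, on which a difference of 1 is a doubling, and levels of different probe sets are not set against each other because probes differ in brightness. A value was called above background when it exceeded the 95th percentile of 1091 olfactory receptor probe sets on the same array (7.73 to 7.82 in LIV, 7.45 to 7.66 in SAT). The tissues carried their labels. The mean of 10 hepatocyte markers was 13.7 to 13.8 in LIV and 7.62 to 7.92 in SAT, and that of 8 adipocyte markers was 13.3 to 13.5 in SAT and 8.3 to 8.58 in LIV. In SAT, 2 arrays stood apart: the mean of 21 skeletal muscle markers reached 12.6 in control animal 11 and 12.2 in treated animal 20, against 7.74 to 9 in the other 4. The main SAT results of the members are therefore also given without these animals. Results of the neighbours and the lists in SAT include them. Nothing states whether the mice came from separate litters or cages, and these are bulk tissues, in which fewer cells of a type and less RNA per cell cannot be told apart.

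In liver, Acot1, Acot3 and Acot4 were lower in every HFD+LY mouse than in every HFD mouse, Acot2 was lower on average, and Acot5 and Acot6 were at background. Acot3 had the largest difference of the members, at 1.89-fold lower. Acot3, the peroxisomal long-chain enzyme, was at 10.24, 9.53 and 10.32 in LIV of HFD animals 8, 11 and 14, and at 8.84, 9.16 and 9.34 in HFD+LY animals 16, 18 and 20. The highest treated array lay below the lowest control array. The group means were 10.03 ± 0.43 and 9.11 ± 0.25 (SD, n = 3 each), a difference of -0.92 (SE 0.21), which was the 16th lowest of 22206 probe sets.

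Acot4, the peroxisomal enzyme of dicarboxylic acyl-CoA, was at 9.58, 8.86 and 9.01 in LIV of HFD animals 8, 11 and 14 and at 8.65, 8.69 and 8.67 in HFD+LY animals 16, 18 and 20. The groups did not overlap, and the treated arrays lay within a narrow band while control animal 8 stood above the other controls. The means were 9.15 ± 0.38 and 8.67 ± 0.02 (SD, n = 3 each), a difference of -0.48 (SE 0.17), or 1.4-fold lower. Without animal 8 the difference of Acot4 was -0.27.

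Acot1, the cytosolic enzyme, was at 10.72, 10.35 and 10.42 in LIV of the HFD animals and at 10.21, 9.99 and 10.26 in the HFD+LY animals, in the same order of animals. The groups did not overlap, although the nearest arrays were control animal 11 and treated animal 20. The difference was -0.34 (SE 0.13), or 1.27-fold lower, and -0.23 without animal 8.

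Acot2, the mitochondrial enzyme, was at 8.93, 8.84 and 8.95 in LIV of the HFD animals and at 8.61, 8.55 and 8.88 in the HFD+LY animals. Treated animal 20 lay above control animal 11, so the groups overlapped. The difference was -0.23 (SE 0.11), between -0.16 without animal 18 and -0.33 without animal 20.

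Acot5 was at 5.68 to 6.12 over the 6 LIV arrays and above background on 0 of them. Acot6 was at 7.48 to 7.80 in LIV and above background on 1 of 6 arrays. For these 2 members no fold between the groups is given in liver.

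**Figure D1:**
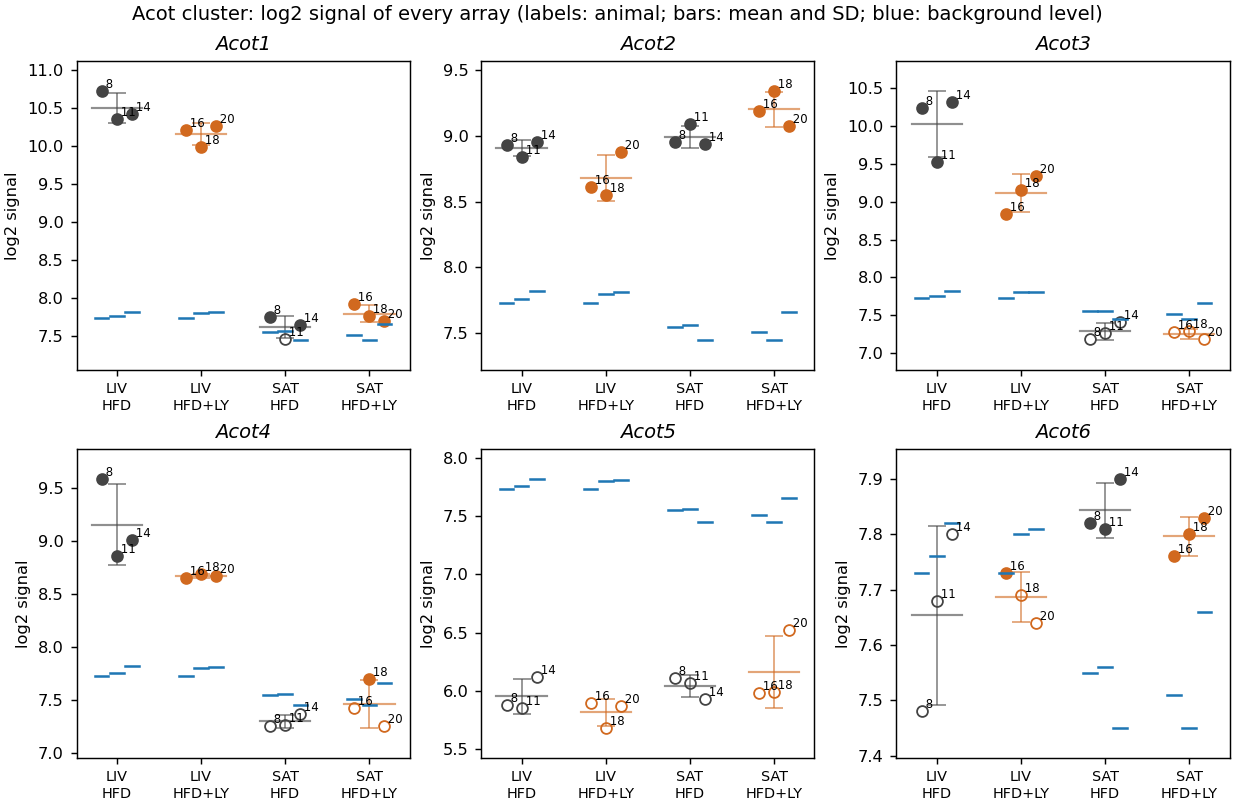
Log2 signal of each member (1 panel each, with its own vertical axis) on every array of the 4 groups, with the animal's number beside the point. Long horizontal bars with whiskers are the mean and SD of 3 arrays, short blue bars are the background level of that array, and open circles are values at or below it; in LIV the HFD+LY points of Acot1, Acot3 and Acot4 lie below all HFD points, and in SAT Acot3 is open on all 6 arrays.

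Of the 6 members, 5 had a lower mean in HFD+LY liver and 3 were lower without overlap between the groups, where 6.89% of all probe sets were, and 0 were higher without overlap, where 5.61% were. In the fit over all probe sets (limma), 3 members were lower at an unadjusted p under 0.05, where 3.94% of all probe sets were, and 0 were higher, where 2.96% were. After Benjamini-Hochberg adjustment 0 members passed, where 0.0045% of all probe sets did. These counts describe members that had been chosen on this contrast, and nothing is read from them. The median difference of the members was -0.29, beside -0.007 over all probe sets.

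Across the 6 LIV arrays the members with signal varied together. Pearson's r between pairs of Acot1, Acot2, Acot3 and Acot4 was 0.6 to 0.91 over 6 pairs, the highest being Acot1 with Acot4 and the lowest Acot2 with Acot4. These values hold the difference between the groups as well as that between animals, the points share their arrays, and near copies may share probes. Within the control group the order of animals was not the same for all members: animal 8 was highest for Acot1 and Acot4, and animal 14 for Acot2 and Acot3. Animal 11 was the lowest control for all 4 members.

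Markers of adipocytes and of macrophages were also lower on average in HFD+LY liver. In LIV the mean of the 8 adipocyte markers was 8.49 to 8.58 in HFD and 8.3 to 8.34 in HFD+LY, with 4 to 5 of the 8 above background on an array, and Adipoq, the adipocyte hormone adiponectin, was above background on 0 of 6 arrays. The mean of 9 macrophage and Kupffer cell markers was 8.34 to 8.7 in HFD liver and 8.07 to 8.39 in HFD+LY liver, so the groups overlapped. On an array 5 to 7 of these 9 markers were above background, among them Clec4f of Kupffer cells on 6 of 6 arrays. Their part in the differences of Acot1 to Acot4 was not tested. The hepatocyte markers held at 13.7 on average in HFD and 13.7 to 13.8 in HFD+LY.

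In SAT the difference between the treated and the control mice did not have the direction seen in liver. Acot1 and Acot2 had higher means in HFD+LY, all 6 members overlapped between the groups, and Acot3 and Acot5 were not above background on any SAT array and Acot4 on 1. Acot2, the member that was above background on every array of both tissues, was at 8.95, 9.09 and 8.94 in SAT of HFD animals 8, 11 and 14 and at 9.19, 9.34 and 9.07 in HFD+LY animals 16, 18 and 20. Treated animal 20 lay just below control animal 11, and the other treated arrays lay above all controls. The difference was 0.21 (SE 0.11), and it was 0.32 without the arrays with muscle signal, those of animals 11 and 20, and 0.14 without animal 18.

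Acot1 was at 7.75, 7.46 and 7.64 in SAT of the HFD animals and at 7.92, 7.76 and 7.70 in the HFD+LY animals, above background on 5 of 6 arrays. Control animal 8 lay above treated animal 20, and the difference was 0.18 (SE 0.11), 0.14 without animals 11 and 20, 0.1 without animal 11 alone and 0.11 without animal 16. Acot4 was at 7.26 to 7.37 in HFD and 7.26 to 7.70 in HFD+LY, and was above background on 1 of 6 SAT arrays, that of treated animal 18. No fold is given for Acot4 in SAT. Acot6 was above background on all 6 SAT arrays, at 7.81 to 7.90 in HFD and 7.76 to 7.83 in HFD+LY, with a difference of -0.04 (SE 0.09). Acot3 was at 7.18 to 7.41 and Acot5 at 5.93 to 6.52 over the 6 SAT arrays, and no fold is given for them there.

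In SAT, 0 members were higher at an unadjusted p under 0.05 in limma, where 1.86% of all probe sets were, and 0 were lower, where 3.19% were. Without overlap 0 were higher, where 4.01% were, and 0 were lower, where 5.48% were. After adjustment 0 members passed, as did 0% of all probe sets. The median difference of the members was 0.14, beside -0.005 over all probe sets, and 0.07 without animals 11 and 20. The mean of the 10 hepatocyte markers in SAT was 7.75 to 7.92 in HFD and 7.62 to 7.69 in HFD+LY, with 6 to 7 of 10 above background and Alb, serum albumin, above it on 6 of 6 arrays. This was lower in the treated mice, opposite to the means of Acot1 and Acot2, and its part in them was not tested. The mean of 7 brown adipocyte markers (8.85 to 9.75 in HFD, 8.96 to 9.45 in HFD+LY) overlapped between the groups. The highest values were those of animals 11 and 20, the arrays with muscle signal. On every SAT array 5 of the 7 were above background. Cidea was above it on 6 of 6 arrays, and Ucp1, the uncoupling protein of brown fat, on 0 of 6.

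**Figure D2:**
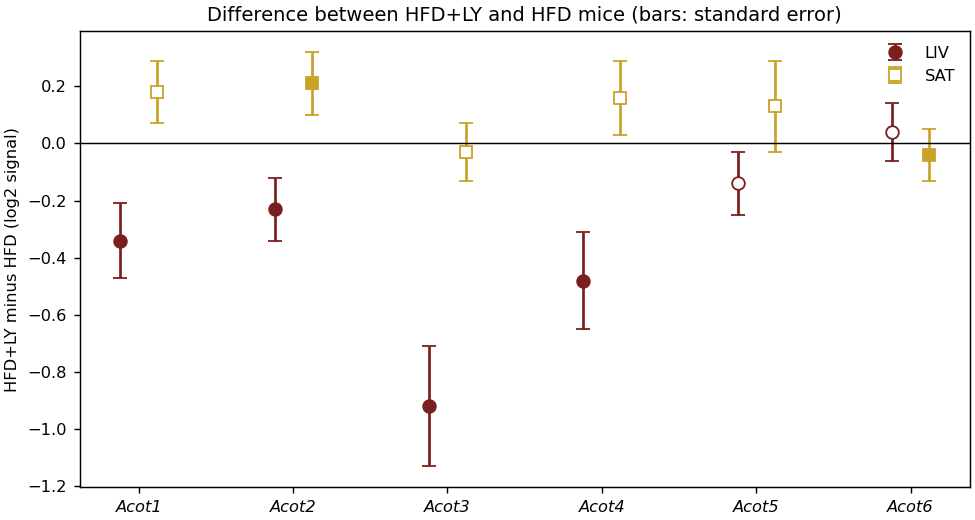
Difference in log2 signal between HFD+LY and HFD mice (vertical axis) for each member in LIV (circles) and SAT (squares), with its standard error. Open symbols are probe sets not above background on all 6 arrays of the tissue; in LIV, Acot3 lies lowest at -0.92, and in SAT Acot2 is the member with filled symbols that lies above 0, at 0.21.

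The tissue comparison asked where each gene was expressed. It was not itself used to choose the members, but in HFD+LY mice it holds the treated minus control differences that were. Acot1, Acot3 and Acot4 were higher in liver than in subcutaneous fat in both groups, and Acot2 was not. In HFD mice, the liver level of Acot1 exceeded that in SAT by 2.88 (SE 0.12), or 7.37-fold, with 2 of 3 SAT arrays above background (limma adjusted p = 6.35e-10). Acot3 exceeded it by 2.74 (SE 0.18, adjusted p = 6.34e-08) and Acot4 by 1.85 (SE 0.16, adjusted p = 9.42e-07). Since Acot3 and Acot4 were not above background on any SAT array of HFD mice, their folds are lower bounds, set against the background level or the own value of each SAT array, whichever was higher: at least 5.71-fold for Acot3 and at least 3.1-fold for Acot4.

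In HFD+LY mice the same 3 members were higher in liver. The liver level of Acot1 exceeded that in SAT by 2.36 (SE 0.12), or 5.14-fold (limma adjusted p = 4.52e-09). Acot3 exceeded it by 1.86 (SE 0.18, adjusted p = 2.74e-06), at least 2.97-fold by the same bound. Acot4 exceeded it by 1.2 (SE 0.16, adjusted p = 4.97e-05), at least 2.06-fold by that bound, with 1 of 3 SAT arrays above background.

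The difference of Acot2 did not pass in HFD mice, at 8.91 ± 0.06 in LIV and 8.99 ± 0.08 in SAT (SD, n = 3 each), that is -0.09 (SE 0.11, limma adjusted p = 0.529). In HFD+LY mice Acot2 was lower in LIV, at 8.68 ± 0.18 against 9.2 ± 0.13, a difference of -0.52 (SE 0.11, adjusted p = 0.00138). All 3 treated LIV arrays of Acot2 lay below all 3 treated SAT arrays. This difference is not independent of the choice of the cluster, since the treated minus control difference in LIV less that in SAT was -0.44. That the call was made in 1 group of mice and not in the other does not show that the groups differed. Acot6 did not pass in either group, with differences of -0.19 (adjusted p = 0.106) in HFD and -0.11 (adjusted p = 0.343) in HFD+LY, and Acot5 was below background on all 12 arrays.

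Thus 3 of 6 members passed in HFD mice, all higher in liver, where 46.1% of all probe sets passed in either direction and 21.4% were higher in liver. In HFD+LY mice 4 of 6 passed, where 45.8% of all probe sets did: 3 members were higher, where 21.8% of all probe sets were, and 1 was lower, where 24% were. The median of the members was 0.88 in HFD and 0.55 in HFD+LY, beside 0.056 and 0.033 over all probe sets. With animals 11 and 20 left out for the muscle signal of their SAT, LIV minus SAT in HFD and in HFD+LY mice was 2.88 and 2.26 for Acot1, at least 2.78 and 1.52 for Acot3, at least 1.8 and 1.06 for Acot4, and -0.01 and -0.69 for Acot2, and 3 and 4 members passed as before.

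Within single animals, LIV minus SAT was 2.23 to 2.97 for Acot1, above 0 in 6 of 6 animals. With the SAT value raised to the background level where it lay below it, the lower bound was 1.33 to 2.87 for Acot3 and 0.98 to 2.04 for Acot4, above 0 in 6 of 6 animals for each. LIV minus SAT ran from -0.79 to 0.01 for Acot2, below 0 in 5 of 6 animals. For Acot6 it ran from -0.34 to -0.03 as measured. Its LIV signal was above background on 1 of 6 arrays, so no direction is read from these values. For Acot1 the 3 HFD+LY animals lay below the 3 HFD animals, which restates the differences between the groups given above. The treated minus control difference in LIV less that in SAT was -0.52 (SE 0.17) for Acot1 and -0.44 (SE 0.15) for Acot2, the latter between -0.3 without animal 18 and -0.6 without animal 20, and these values are a description, since both differences led to the choice of the cluster. It is not given for Acot3 and Acot4, whose SAT signal was at background on 6 and 5 of 6 arrays.

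**Figure D3:**
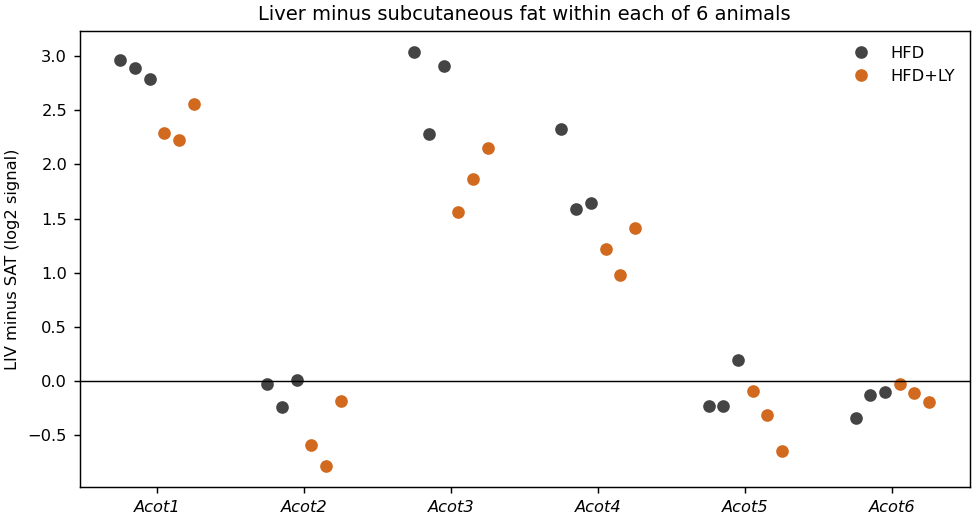
LIV minus SAT of the log2 signal (vertical axis) within each of 6 animals for each member, HFD animals in grey and HFD+LY animals in orange, as measured, so that SAT values at background (all of Acot3, 5 of 6 of Acot4) are not bounded. All 6 animals lie above 0 for Acot1, Acot3 and Acot4, and Acot2 runs from -0.79 to 0.01. Acot5 was below background in both tissues, and Acot6 was above it on 1 of 6 LIV arrays.

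Along the chromosome, the lower signal in treated liver was seen at the 4 members above background there, which are those nearest the Acot2 end. Acot5 and Acot6, at the other end, were above background on 0 and 1 of 6 LIV arrays, so a difference there could not be judged. From the start of Acot2, the LIV differences were -0.23 at 0 kb (Acot2), -0.34 at 21.6 kb (Acot1), -0.48 at 49.4 kb (Acot4) and -0.92 at 64.3 kb (Acot3). Of the 3 protein-coding genes on each side, Papln, Numb and Riox1 before the cluster and Dnal1, Pnma1 and Mideas after it, 0 of 6 passed an unadjusted p under 0.05 in LIV, and their differences ran from -0.15 for Papln to 0.06 for Mideas. By overlap of arrays 1 of the 6, Papln, was lower in every treated liver than in every control, where 6.89% of all probe sets were. In SAT all 6 of these neighbours had a positive difference, with Riox1 at 0.28 (SE 0.12, limma unadjusted p = 0.0475, which did not pass after adjustment) and Dnal1 at 0.32 (SE 0.15, unadjusted p = 0.0727).

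**Figure D4:**
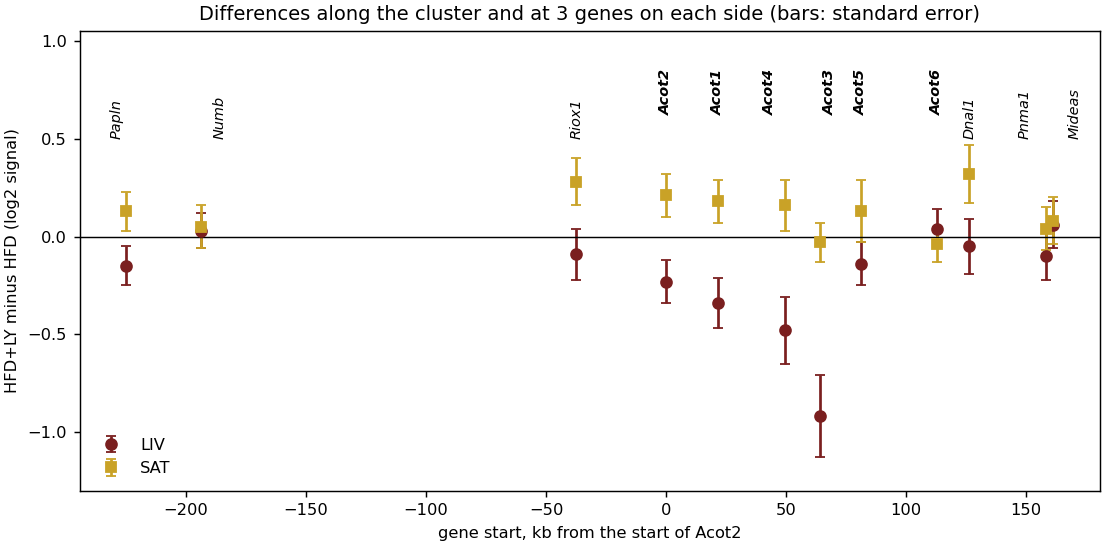
Difference in log2 signal between HFD+LY and HFD mice (vertical axis, with standard error) in LIV and SAT against the distance of each gene's start from that of Acot2 in kb, for the members (bold) and 3 protein-coding genes on each side. The LIV values go from -0.23 at Acot2 to -0.92 at Acot3, while the neighbours in LIV lie between -0.15 and 0.06. Acot5 and Acot6 were above background on 0 and 1 of 6 LIV arrays.

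Other genes of acyl-CoA metabolism gave a setting for the members. Of 13 other thioesterases and acyl transferases, 0 passed an unadjusted p under 0.05 in LIV in either direction, with a median difference of -0.03 and 9 of 13 differences negative. Without overlap 2 of 13, Them5 and Them6, were lower, where 6.89% of all probe sets were, and 0 were higher. Those with the smallest p were Them5 (-0.32, SE 0.15), a mitochondrial thioesterase of cardiolipin remodelling that averaged 6.5 in HFD liver, Them6 (-0.19, SE 0.1), Them4 (0.12, SE 0.12) and Acot12, the cytosolic acetyl-CoA thioesterase (0.08, SE 0.09). In SAT 0 of 13 passed, with a median of -0.03.

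Of 23 other PPAR alpha targets, 3 were lower and 0 higher in LIV at an unadjusted p under 0.05, where 3.94% of all probe sets were lower, and 21 of 23 differences were negative, with a median of -0.13. Vnn1, the pantetheinase that releases pantothenate, a precursor of CoA, was at -0.42 (SE 0.1). Cidec, a lipid droplet protein that is also among the adipocyte markers, was at -0.50 (SE 0.14), and the keratin Krt23 at -0.71 (SE 0.26). After adjustment 0 of 23 passed, the smallest adjusted p being 0.685. Fgf21, a liver hormone of fasting, was at -0.25 (SE 0.12). In SAT 1 of 23 was higher at an unadjusted p under 0.05, where 1.86% of all probe sets were, again Vnn1 at 0.86 (SE 0.31). Its groups overlapped, at 9.44 ± 0.13 in HFD and 10.29 ± 0.72 in HFD+LY (SD, n = 3 each), so the treated arrays were uneven. In SAT 0 of the 23 were lower, where 3.19% of all probe sets were, and the median was -0.05.

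Other enzymes that act on fatty acids and their CoA esters were counted in the same way. Of 21 acyl-CoA synthetases, 1 was lower in LIV at an unadjusted p under 0.05, where 3.94% of all probe sets were, and the median was -0.01. The 1 gene was Slc27a1, a fatty acid transporter with synthetase activity, at -0.49 (SE 0.13, limma unadjusted p = 0.00533). Of 20 genes of peroxisomal and 17 of mitochondrial fatty acid oxidation, 0 passed in LIV in either direction, with a median of -0.03 in each. The peroxisomal genes of smallest p were Abcd3, a transporter of the peroxisomal membrane (0.42, SE 0.22), Pex11a, of peroxisome division (-0.22, SE 0.12), and the thiolase Acaa1b (-0.14, SE 0.09). Of 10 genes of CoA synthesis and breakdown 0 passed, with Pank4 at 0.22 (SE 0.1) and Vnn3 at -0.22 (SE 0.1). In SAT, 1 of the 17 mitochondrial genes was lower at an unadjusted p under 0.05, where 3.19% of all probe sets were. It was Hadha, of the mitochondrial trifunctional protein (-0.28, SE 0.11), and 0 genes of the synthetase, peroxisomal and CoA lists passed. Without overlap in LIV, 6.89% of all probe sets were lower. Of the lists, 5 of the 23 other PPAR alpha targets, 3 of the 21 synthetases, 1 of the 20 peroxisomal, 4 of the 17 mitochondrial and 0 of the 10 CoA genes were. Higher without overlap were 0, 0, 2, 2 and 1 of them, where 5.61% of all probe sets were. After adjustment 0 genes of these lists passed in either tissue.

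**Figure D5:**
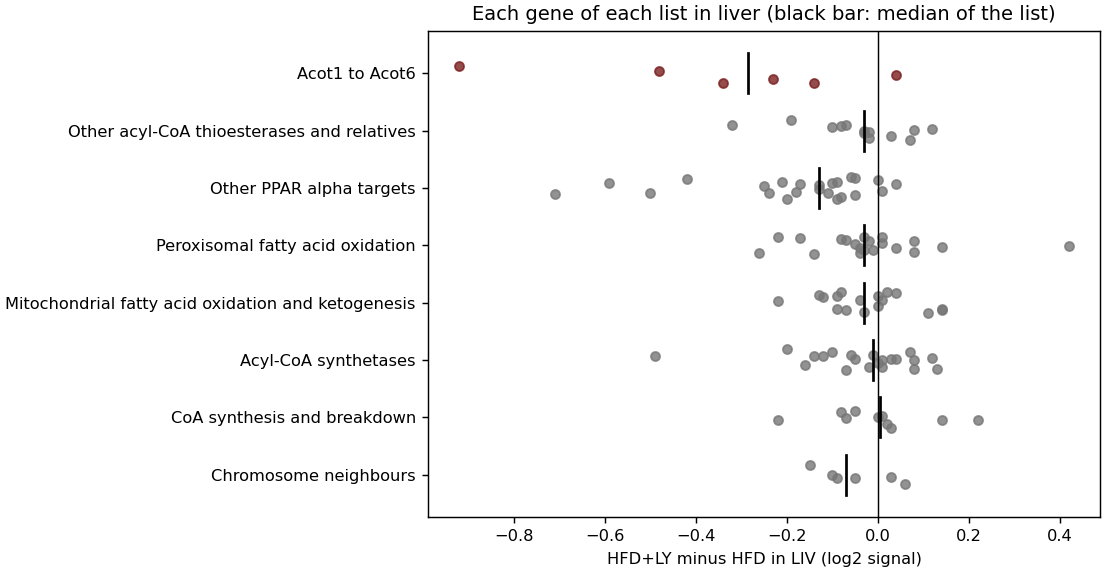
Difference in log2 signal between HFD+LY and HFD liver (horizontal axis) of each gene, 1 row per list with points spread vertically at random, with a black bar at the median of the list. The median of the members is -0.29, that of the other PPAR alpha targets -0.13, and those of the thioesterase and both oxidation lists -0.03.

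Between the tissues, 8 of the 13 other thioesterases and acyl transferases were higher in HFD liver and 2 lower at an adjusted p under 0.05 in limma. Of all probe sets 21.4% were higher and 24.7% lower, and the median of the 13 was 0.43. Of the peroxisomal genes 16 of 20 were higher and 3 lower, with a median of 1.66, and of the other PPAR alpha targets 12 of 23 were higher and 7 lower, with a median of 0.98.

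The genes whose deviations from the tissue mean were most like those of each member over the 12 arrays were sought among 8025 genes. For Acot3 they were Abcb1b, a drug efflux pump (Pearson's r = 0.96), the ceramide synthase Cers6 (r = 0.96) and the galectin Lgals1 (r = 0.93). In LIV these genes differed between the groups by -0.56 (SE 0.16), -0.78 (SE 0.14) and -1.18 (SE 0.18), in the direction of Acot3. The likeness to Acot3 rests on the liver arrays, since Acot3 was at background on all 6 SAT arrays, where r was 0.34 for Abcb1b, 0.8 for Cers6 and -0.08 for Lgals1. For Acot4 the most alike were Gas6, a ligand of TAM receptors (r = 0.94), Tas2r104 (r = 0.92) and Tifa (r = 0.92), with LIV differences of -0.74, -0.2 and -0.48. Acot4 was above background on 1 of 6 SAT arrays. The r in SAT, 0.86, 0.99 and 0.77 in that order, thus rests mostly on background signal. For Acot1 they were Ly75 (r = 0.88), the sulfatase Sulf2 (r = 0.87) and Cmtm3 (r = 0.87), and for Acot2 they were Rab6b (r = 0.91), Tex26 (r = 0.88) and Irx1 (r = 0.86). The points share arrays and the difference between the groups, and the highest of 8025 values is high by the search itself. None of these genes was shared between members. For Acot5, which was below background on all 12 arrays, the genes were Msx2, Ccdc68 and Hes7. For Acot6, above background on 6 of 6 SAT arrays and 1 of 6 LIV arrays, they were Skint1, Nolc1 and Agr3.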

How the data were processed

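RNA of 6 livers and 6 inguinal fat pads was hybridized to Affymetrix whole-transcript arrays, 1 per sample. The authors deposited log2 signals, per the labels made with RMA (background correction, quantile normalization, summary per probe set) before limma; the array software's version is not given in the sources used here. Quantile normalization over both tissues can compress differences between them. The table had 28846 probe sets; 6640 of them were array controls and were dropped, and 22206 were tested without a filter. All columns matched a sample (0 not matched). Symbols came from the platform annotation, positions and start regions from RefSeq (GRCm38.p6).

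Each tissue (6 arrays) was fitted with limma 3.58.1 in R 4.3.3 with 2 group means, and LIV against SAT on 12 arrays with 4 group means, with p-values adjusted over all 22206 by Benjamini-Hochberg and a threshold of 0.05. The code was tested on simulated data, and figures were drawn with matplotlib 3.10.9. Precision was limited by how few arrays there were: an exact permutation test of 3 against 3 cannot go below 0.1. Members and lists were chosen with earlier results of these data known. Named were all members, of each list up to 4 genes per tissue of smallest unadjusted p (those of the text are a part), and the 3 genes most alike to each member, leaving out members, predicted genes, olfactory and vomeronasal receptors, small non-coding RNAs and probe sets whose deviations spanned under 0.5. Alternatives were centring, within-tissue quantile normalization, array weights, an intensity trend in the prior, a filter on dim probe sets, 1 fit of 12 arrays, the t-test that the methods name, leaving out each animal, leaving out animals 11 and 20, and the animal as a block. LIV and SAT arrays carry the same animal numbers and come from the same mice; their deviations from the group means correlated at -0.067 to 0.214 over probe sets.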

Additional observations from a re-analysis of the deposited data

Results flagged for a closer look

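Acot1 and Acot2 stood out because every treated array lay below the control mean in liver and above it in fat. For Acot1 the treated arrays lay at -0.51 to -0.24 from the control mean in LIV and at 0.08 to 0.3 in SAT, and the LIV difference less the SAT difference was -0.52. For Acot2 they lay at -0.36 to -0.03 in LIV and at 0.08 to 0.35 in SAT, and the LIV difference less the SAT difference was -0.44. In the fit over all probe sets neither passed after adjustment (limma adjusted p = 0.756 for each, and 0.127 to 1 over the alternatives), and that fit is no independent test, since both contrasts led to the choice of the genes. The value for Acot2 was -0.68 without animals 11 and 20, -0.6 without animal 20 and -0.3 without animal 18.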

How the results depend on the processing

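The directions of Acot1, Acot2, Acot3 and Acot4 in LIV, those of Acot1 and Acot2 in SAT, and every call between the tissues were the same under each alternative that was run. In LIV the median difference of the members (-0.29) was -0.41 with dim probe sets left out, a setting that leaves 4 members, and -0.36 to -0.21 over the settings that left out 1 animal. The count of members lower at an unadjusted p under 0.05 (3) was 1 with the methods' t-test on the same values and 2 to 4 with 1 animal left out; the cause was not tested. In SAT the median (0.14) was 0.07 with array weights, 0.18 with dim probe sets left out, 0.07 without animals 11 and 20, and 0.09 to 0.15 with 1 animal left out. The count of members higher there (0) was 2 with array weights, 1 without animals 11 and 20, and 0 to 1 with 1 animal left out. The median of the LIV differences less the SAT differences (-0.48) was -0.65 without animals 11 and 20 and -0.61 to -0.38 with 1 animal left out. With the animal as a block, the replicate pairing by animal, 3 members passed between the tissues in HFD mice and 4 in HFD+LY mice, as without it, and it changed no other call. Acot6 in LIV ran from -0.05 to 0.11, Acot3 in SAT from -0.08 to 0.03 and Acot5 in SAT from -0.05 to 0.22, all at or near background, where signal limits what a difference can show.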
